A study of Mus musculus with 8 samples.

Results

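The genes described here encode the machinery of oxidative phosphorylation: the 4 respiratory chain complexes and ATP synthase, which counts as complex V. They were selected by symbol from a table of 19201 genes, as every symbol that starts with Nduf and a subunit letter and number, Uqcr, Atp5 or Cox4 to Cox8, the 4 Sdh genes, and the 13 protein-coding genes of mitochondrial DNA. This gave 96 genes, 83 of them nuclear encoded and 13 mitochondrial encoded. The rule itself used no measured value, but it was set with earlier results of these data known. Cortical bone of the tibia and femur was profiled by RNA-Seq in Prx1Cre; Piezo1fl/fl mice (Piezo1-deficient below) and in WT mice, all aged 6 weeks and of the strain C57BL/6J. Each genotype has 4 samples, numbered replicates 1, 3, 4 and 5. Prx1Cre is active in the progenitors of the limb skeleton, where it deletes PIEZO1, a mechanically activated ion channel, and it is not active in muscle fibres or blood-derived cells. The labels state neither whether the samples are from separate animals nor whether the WT mice carried a floxed allele or Cre, so p-values measure the spread between these samples.

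In the inner mitochondrial membrane, complexes I and II pass electrons from NADH and succinate to ubiquinone, complex III passes them on to cytochrome c and complex IV to oxygen. Complexes I, III and IV pump protons, and complex V uses the resulting gradient to make ATP. Mitochondrial DNA encodes core subunits of complexes I, III, IV and V, whereas the nucleus encodes all of complex II and the remaining subunits. Mitochondrial genes are transcribed as long strands that are then cut into single messengers. In complex IV, the subunits VIa, VIIa and VIII each exist as a form found in most tissues, encoded by Cox6a1, Cox7a2 and Cox8a, and a form of heart and skeletal muscle, encoded by Cox6a2, Cox7a1 and Cox8b.

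The libraries held 11963536 to 14536106 counts. Piezo1 itself was at 138 ± 6.37 CPM in Piezo1-deficient and 205 ± 9.94 CPM in WT bone (SD, n = 4 each), a log2 fold change of -0.57 with an adjusted p of 0.0027. CPM are the counts of a gene scaled to a common library size, with sizes adjusted by the trimmed mean of M-values (TMM). Bone was ground whole, and its libraries differed in the markers of several cell types. The sum of 25 skeletal muscle markers was 618, 5740, 2346 and 628 CPM in the Piezo1-deficient replicates 1, 3, 4 and 5, against 46.7, 38.8, 223 and 131 CPM in the WT replicates. The genotypes did not overlap in this sum, and replicates 3 and 4 of the Piezo1-deficient group stood far above the rest. Of these 25 markers, 21 were called higher and none lower, and 23 did not overlap between genotypes. Marker sums of osteoblasts and osteocytes averaged 144601 CPM in Piezo1-deficient and 106526 CPM in WT bone, most of it Col1a1, and 13611 and 10751 CPM without Col1a1. Of the 10 markers, 2 (Bglap and Bglap2) were called higher, and 3 did not overlap between genotypes. Those of osteoclasts averaged 6324 and 9007 CPM, with 3 of 8 called lower and 5 not overlapping. Those of growth plate chondrocytes averaged 558 and 5381 CPM, with 8 of 8 called lower and 8 not overlapping. Among all tested genes, 2.04% were called higher and 0.973% lower. In 6.65% the genotypes did not overlap and Piezo1-deficient bone was higher, and in 5.27% it was lower.

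Of the 96 genes, 95 passed the filter on low counts; Cox8b did not. At an adjusted p below 0.05, 2 of the 95 were higher in Piezo1-deficient bone and none was lower. Among all 15318 tested genes, 2.04% were called higher and 0.973% lower, so the count of called members was close to the background. Both called genes, CYTB and ND4, are mitochondrial encoded. At an unadjusted p below 0.05, 18 of the 95 were higher and 0 lower, against 10.5% of all tested genes higher and 7.89% lower. Of these 18, 10 are mitochondrial encoded and 8 nuclear encoded. The Wald test of DESeq2 called 9 members higher and 0 lower, against 3.87% of all genes higher and 2.34% lower. The 13 mitochondrial encoded genes had a median log2 fold change of 0.49, the 82 tested nuclear encoded genes one of 0.098, and all tested genes one of 0.0050. Of the nuclear encoded genes, 75 of 82 lay within 0.3 of 0 on the log2 scale, and the widest departures were those of Cox6a2 and Cox7a1.

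**Figure D1:**
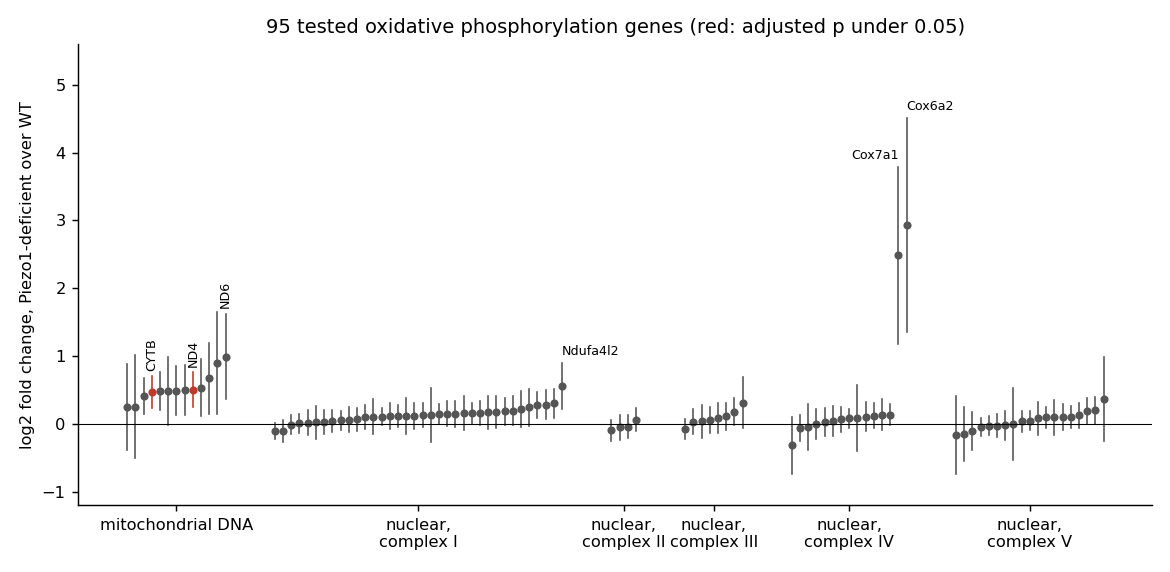
Log2 fold change (y axis, Piezo1-deficient over WT) of the 95 tested genes, with 95% intervals from the edgeR fit as vertical lines. Genes are grouped along the x axis by genome and complex and ordered by value, and red marks CYTB and ND4, whose adjusted p was below 0.05. The 13 mitochondrial encoded genes all lie above 0, most nuclear encoded genes lie near 0, and Cox6a2 and Cox7a1 stand apart at 2.93 and 2.48.

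RNA from the mitochondrial genome was described first by its sum. The 13 genes together had 21443, 24679, 21214 and 16907 CPM in the Piezo1-deficient replicates 1, 3, 4 and 5, against 13231, 14514, 16738 and 17151 CPM in the WT replicates. The genotypes overlapped, since Piezo1-deficient replicate 5 was below WT replicate 5, while the other 3 Piezo1-deficient libraries were above every WT library. As a share of all counts in the library, the 13 genes took 2.02 ± 0.36% in Piezo1-deficient and 1.61 ± 0.24% in WT bone. The 83 nuclear encoded genes summed to 6449 ± 442 CPM in Piezo1-deficient and 6218 ± 234 CPM in WT bone. The mitochondrial sum was 2.69 to 3.78 times the nuclear sum in Piezo1-deficient libraries and 2.18 to 2.87 times in WT libraries. Of the mitochondrial counts, COX2, COX3, ATP6, ATP8, ND3 and ND4L took only 0.66% in Piezo1-deficient and 0.61% in WT bone. The levels of these 6 genes are uncertain, as described below, so the sum, share and ratio are in effect those of the other 7 genes. In whole bone, a difference in the number of cells of a type and a difference in RNA per cell cannot be told apart.

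**Figure D2:**
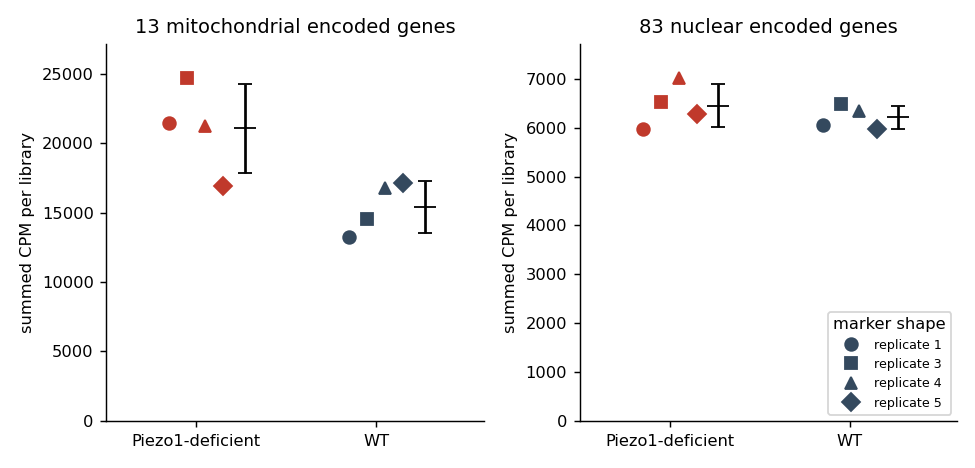
Summed CPM per library (y axes, starting at 0) of the 13 mitochondrial encoded and the 83 nuclear encoded genes, Piezo1-deficient on the left and WT on the right of each panel. Marker shapes give the replicate, and the bars beside the points give the mean and SD of 4 libraries. In the mitochondrial panel 3 of the 4 Piezo1-deficient libraries lie above all WT libraries, and in the nuclear panel the genotypes overlap widely.

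CYTB, cytochrome b, the mitochondrial encoded subunit of complex III, had 5095, 5653, 5181 and 4208 CPM in Piezo1-deficient replicates 1, 3, 4 and 5, against 3190, 3672, 3794 and 3901 CPM in WT. Every Piezo1-deficient library was above every WT library. The means were 5034 ± 603 and 3639 ± 313 CPM, and the log2 fold change was 0.47 ± 0.11 (SE), or 1.38-fold, with an adjusted p of 0.043. ND4, a proton-pumping subunit of complex I, had 1554, 1873, 1631 and 1288 CPM in Piezo1-deficient libraries, against 987, 1083, 1171 and 1221 CPM in WT libraries. These did not overlap either. Its log2 fold change was 0.51 ± 0.12 (SE), or 1.42-fold, with an adjusted p of 0.042. Both values lie close to the threshold, and both calls were lost when Piezo1-deficient replicate 3 or 4 or any of the WT replicates was left out, with adjusted p-values of 0.072 to 0.12 for CYTB and 0.075 to 0.12 for ND4.

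The messengers of complex IV encoded by mitochondrial DNA are COX1, COX2 and COX3, its catalytic core. COX1, which carries the oxygen-binding site, had 9790, 10639, 9711 and 7637 CPM in Piezo1-deficient replicates 1, 3, 4 and 5, against 6234, 6753, 7725 and 7769 CPM in WT. It had the highest count of the 13 genes, 44.9 ± 1.24% of mitochondrial counts in Piezo1-deficient and 46.3 ± 0.76% in WT bone. This share too is taken of a total to which the genes of uncertain level add little. The genotypes overlapped through Piezo1-deficient replicate 5, and the log2 fold change of 0.41 had an adjusted p of 0.10. COX2, which receives the electrons from cytochrome c, had 48.0, 55.8, 49.1 and 39.9 CPM in Piezo1-deficient libraries, against 30.1, 29.2, 38.9 and 39.5 CPM in WT libraries. The genotypes did not overlap, and the log2 fold change was 0.49 with an adjusted p of 0.069. COX3 had 29.3 to 53.1 CPM in Piezo1-deficient and 24.2 to 37.3 CPM in WT libraries, with a log2 fold change of 0.53 and an adjusted p of 0.16.

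Complex I takes 7 subunits from mitochondrial DNA. ND6, the one of them read from the opposite strand, had 8.29, 12.8, 7.18 and 10.5 CPM in Piezo1-deficient replicates 1, 3, 4 and 5, against 2.27, 6.77, 4.79 and 5.62 CPM in WT. The genotypes did not overlap, and its log2 fold change of 0.99 had an adjusted p of 0.093. ND6 overlaps the end of ND5, and the counting is not stated to use strand. ND1 averaged 2093 ± 412 CPM in Piezo1-deficient and 1474 ± 290 CPM in WT bone, ND2 1239 ± 378 and 882 ± 237 CPM, and ND5 1514 ± 352 and 1076 ± 178 CPM. Their log2 fold changes were 0.51, 0.49 and 0.49, and the genotypes overlapped in each, with adjusted p-values of 0.13, 0.28 and 0.14. ND3 averaged 8.84 ± 3.89 CPM in Piezo1-deficient and 4.73 ± 1.91 CPM in WT bone, and ND4L 2.94 ± 0.67 and 2.48 ± 0.93 CPM. Their log2 fold changes of 0.90 and 0.24 had adjusted p-values of 0.18 and 0.70. ATP6 and ATP8, of the membrane part of complex V, averaged 30.7 ± 8.31 and 4.70 ± 2.52 CPM in Piezo1-deficient bone, against 19.2 ± 6.00 and 3.97 ± 1.26 CPM in WT bone. Their log2 fold changes were 0.68 and 0.25, with adjusted p-values of 0.16 and 0.75.

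All 13 log2 fold changes were above 0, from 0.24 to 0.99, and 4 of the 13 genes did not overlap between genotypes, CYTB, ND4, COX2 and ND6. Among all tested genes, 6.65% did not overlap and were higher in Piezo1-deficient bone. The 13 genes come from shared precursor strands and are not 13 independent measurements. One library weighed on all of them, since Piezo1-deficient replicate 3 was the highest of the 8 libraries for 13 of 13 genes, and WT replicate 1 was the lowest for 11. Piezo1-deficient replicate 5 was among the 4 highest libraries for 4 genes and WT replicate 5 for 8. Replicates 3 and 4 of the Piezo1-deficient group are also those with the highest muscle marker sums. Without both, in an alternative chosen after seeing the data, the median log2 fold change of the 13 genes was 0.31, 12 of 13 values were above 0 with ATP8 at -0.27, and 0 were called. Collagen and matrix messengers shifted the totals as well, since Col1a1, Col1a2 and Sparc took 24.6 to 31.2% of counts in Piezo1-deficient and 21.3 to 24.5% in WT libraries. With library sizes computed without these 3 genes, CYTB and ND4 were still called, at log2 fold changes of 0.46 and 0.50. The part of the cell types named above in the mitochondrial sum was not tested.

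**Figure D3:**
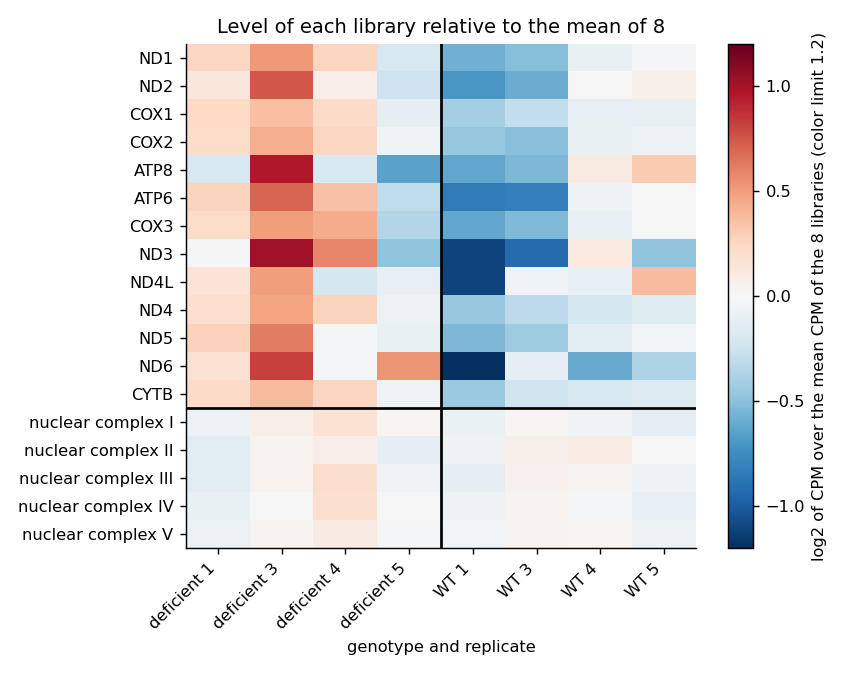
Level of each of the 13 mitochondrial encoded genes, in genome order, and of the summed nuclear encoded genes of complexes I to V (rows) in each library (columns, Piezo1-deficient left and WT right). The complex IV row leaves out Cox6a2, Cox7a1 and Cox8b. Color gives log2 of CPM over the mean CPM of the 8 libraries, red above and blue below the mean, with colors ending at 1.2 either way, which only ND6 in WT replicate 1 passes, at -1.68. The mitochondrial rows are mostly red in Piezo1-deficient replicates 1, 3 and 4 and blue in WT replicates 1 and 3, and the nuclear rows stay pale.

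The 13 genes differed widely in level once divided by length. A stretch of mitochondrial DNA, positions 6390 to 11042, is repeated in nuclear chromosome 1 of the assembly NCBIM37 (mm9), at 24618374 to 24623027 on the minus strand, with 99.936% identity, 2 mismatches and 1 gap over 4653 bases. COX2, ATP8, ATP6, COX3, ND3 and ND4L lie wholly inside the copied stretch. They averaged 9.89 to 70.5 CPM per kilobase in Piezo1-deficient and 8.35 to 50.3 CPM per kilobase in WT bone. COX1, with 31.26% of its length inside, averaged 6113 and 4609 CPM per kilobase, and ND4, with 63.57% inside, 1151 and 810 CPM per kilobase. Outside the chromosome 1 copy lie 5 genes, ND1, ND2, ND5, ND6 and CYTB. The highest of them was CYTB at 4401 and 3181 CPM per kilobase, and the lowest was ND6 at 18.7 and 9.37. Shorter and less alike copies lie elsewhere in the nuclear genome. A copy on chromosome 2 (mitochondrial positions 4441 to 7699, 97.362% identity) spans COX1, COX2 and part of ND2. Another on chromosome 13 (positions 12446 to 13400, 95.183% identity) covers part of ND5. How the read counter treated reads that match several places is not given in the sources used here. The levels of the 6 genes inside are therefore uncertain, and those of the other genes with copied stretches may be too. No order between the 6 genes and the other genes can be read as one of messenger abundance. The 6 genes took 0.66 ± 0.057% of mitochondrial counts in Piezo1-deficient and 0.61 ± 0.069% in WT bone, and their median log2 fold change was 0.51, against 0.49 for the other 7. To show how alike the copies are, 41 bases around a mismatch within ND3 (T9461C, the base of mitochondrial DNA first, then its position counted from 1 on the mitochondrial chromosome, then the base of the copy) are given 5′ to 3′ along the mitochondrial reference strand, with the differing base in capitals. The mitochondrial stretch is at positions 9441 to 9481, and the copy at 24619936 to 24619976 of chromosome 1, minus strand, both of NCBIM37.
mitochondrial DNA: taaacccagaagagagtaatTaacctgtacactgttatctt
chromosome 1 copy: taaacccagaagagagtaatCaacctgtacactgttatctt

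**Figure D4:**
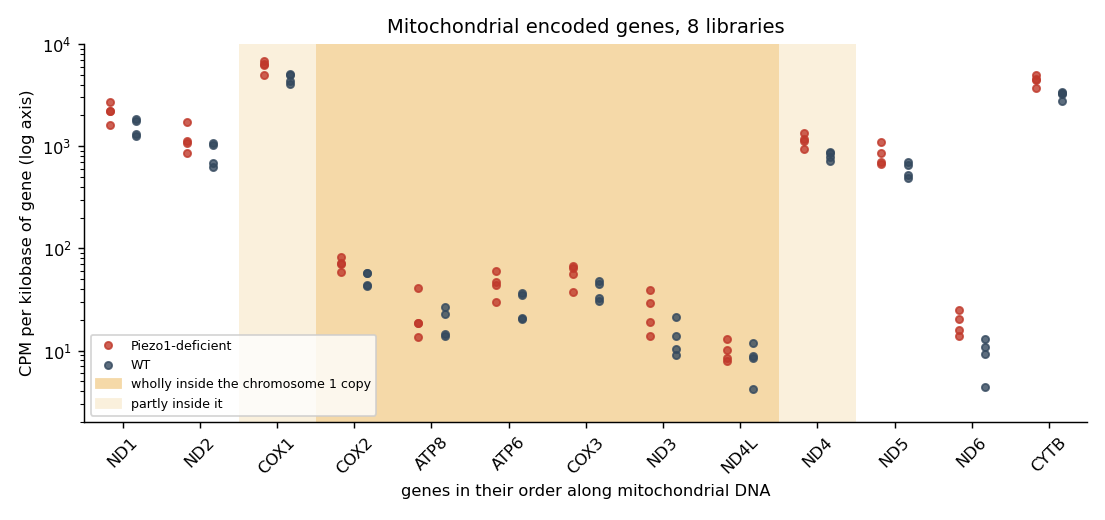
CPM per kilobase of gene (y axis, log scale) of the 13 mitochondrial encoded genes in their order along mitochondrial DNA, 4 Piezo1-deficient libraries left and 4 WT libraries right of each tick. Dark shading marks the 6 genes wholly inside the chromosome 1 copy and light shading COX1 and ND4, which lie partly inside it. The 6 genes in dark shading and ND6 average at most 70.5 CPM per kilobase, and the other genes lie far above them.

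The muscle forms of the complex IV subunits were the nuclear encoded genes with the largest differences, and none was called. Cox6a2 (GRCm38.p6, chromosome 7, 128205435 to 128206366) had 42, 424, 202 and 37 counts in Piezo1-deficient replicates 1, 3, 4 and 5, against 15, 16, 40 and 25 counts in WT. As CPM these were 3.55, 31.3, 14.8 and 3.22 in Piezo1-deficient and 1.18, 1.17, 2.59 and 1.95 in WT libraries. The genotypes did not overlap, and within the Piezo1-deficient group replicates 3 and 4 were far above replicates 1 and 5. The log2 fold change was 2.93 ± 0.71 (SE), with a 95% interval of 1.36 to 4.51 and an adjusted p of 0.055, and the two-sided exact permutation test of mean CPM gave p = 0.0286, the smallest that 4 against 4 allows. The annotation of RefSeq places Cox6a2 in overlap with Itgad.

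Cox7a1 (chromosome 7, 30184171 to 30186030) had 23, 118, 65 and 19 counts in Piezo1-deficient libraries, against 4, 6, 16 and 16 counts in WT libraries. It averaged 4.27 ± 3.28 CPM in Piezo1-deficient and 0.76 ± 0.45 CPM in WT bone, with no overlap and a log2 fold change of 2.48 ± 0.59 (SE). Its adjusted p was 0.051 and its exact permutation p 0.0286. With only 4 and 6 counts in WT replicates 1 and 3, Cox7a1 passed the filter on low counts through its Piezo1-deficient libraries. Its entry into the test was therefore not independent of its difference. Cox8b (chromosome 7, 140898942 to 140900446) had 9, 121, 56 and 14 counts in Piezo1-deficient libraries, against 2, 0, 6 and 4 counts in WT libraries. Again the genotypes did not overlap and the order of the Piezo1-deficient libraries put replicates 3 and 4 on top. Cox8b failed the filter on low counts and has no adjusted p in the fit, its log2 ratio of mean CPM was 4.13, and its exact permutation p was 0.0286. Fitted with no filter on low counts, Cox7a1 and Cox8b were called higher, and with a replicate block or by DESeq2, Cox6a2 and Cox7a1 were.

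The partner forms, found in most tissues, were not called either, and their differences were small. Cox6a1 (chromosome 5, 115345652 to 115348958) had 128, 131, 141 and 147 CPM in Piezo1-deficient libraries, against 130, 128, 126 and 112 CPM in WT libraries, with a log2 fold change of 0.14 and an adjusted p of 0.34. Cox7a2 (chromosome 9, 79755241 to 79771422) averaged 73.7 ± 9.21 CPM in Piezo1-deficient and 72.3 ± 4.90 CPM in WT bone, with a log2 fold change of 0.027, a 95% interval of -0.18 to 0.23 and an adjusted p of 0.91. Cox8a (chromosome 19, 7215158 to 7217616) averaged 105.9 ± 11.2 CPM in Piezo1-deficient and 105.9 ± 11.9 CPM in WT bone, with a 95% interval of the log2 fold change from -0.22 to 0.22. Within each pair, the muscle form was also read as a share of the counts of both forms, which does not depend on how the libraries were scaled.

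Cox6a2 made up 2.71, 19.3, 9.51 and 2.15% of the counts of Cox6a2 and Cox6a1 together in Piezo1-deficient replicates 1, 3, 4 and 5, against 0.90, 0.90, 2.01 and 1.71% in WT. The lowest Piezo1-deficient share, 37 of 1724 counts, had a 95% exact (Clopper-Pearson) interval of 1.52 to 2.95%, and the highest WT share, 40 of 1991 counts, one of 1.44 to 2.73%, so these were not separated beyond counting error. Cox7a1 made up 2.94, 10.8, 5.23 and 2.22% of the counts of its pair in Piezo1-deficient libraries, against 0.46, 0.56, 1.37 and 1.79% in WT libraries. The intervals of the nearest libraries overlapped here too, 1.34 to 3.44% in Piezo1-deficient replicate 5 and 1.03 to 2.89% in WT replicate 5. Cox8b made up 0.81, 7.70, 3.30 and 1.16% in Piezo1-deficient libraries, against 0.15, 0, 0.36 and 0.34% in WT libraries. Here as well the intervals of the nearest libraries overlapped, 0.372 to 1.54% in Piezo1-deficient replicate 1 and 0.132 to 0.783% in WT replicate 4. WT replicate 3 had 0 of 1662 counts, which allows a share of up to 0.181% when the limit is set at 3 counts of the total. Intervals and this limit cover counting error only.

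The 3 shares were highest in the libraries with the highest muscle marker sums. In each pair Piezo1-deficient replicate 3 had the highest share and replicate 4 the next, and the muscle marker sum was 5740 and 2346 CPM there, against 618 and 628 CPM in Piezo1-deficient replicates 1 and 5 and at most 223 CPM in WT libraries. Of the 25 muscle markers, Tnnt3, troponin T of fast muscle, averaged 222 CPM in Piezo1-deficient and 8.60 CPM in WT bone, and Ckm, muscle creatine kinase, 202 and 7.05 CPM. Heart shares these subunit forms. Of 5 cardiac markers listed, only 3 were among the genes counted, Myh6, Tnni3 and Myl4. Their log2 fold changes were -1.07, -0.27 and -0.66, none of them called. Myh6 had only 2 to 9 counts in Piezo1-deficient and 11 to 15 counts in WT libraries. Tnni3 had 15 to 27 and 16 to 34 counts, and Myl4 84 to 256 and 196 to 339. Of 4 brown adipocyte markers listed, only Dio2 was among the genes counted. Its log2 fold change was 0.38, with an adjusted p of 0.42. With so few markers, the part of heart or brown fat in these levels was not tested. Without Piezo1-deficient replicates 3 and 4, the log2 fold changes were 0.95 for Cox6a2 and 1.22 for Cox7a1, with adjusted p-values of 0.22 and 0.25, and the log2 ratio for Cox8b was 2.21. The part of muscle in the levels of Cox6a2, Cox7a1 and Cox8b was not tested further.

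**Figure D5:**
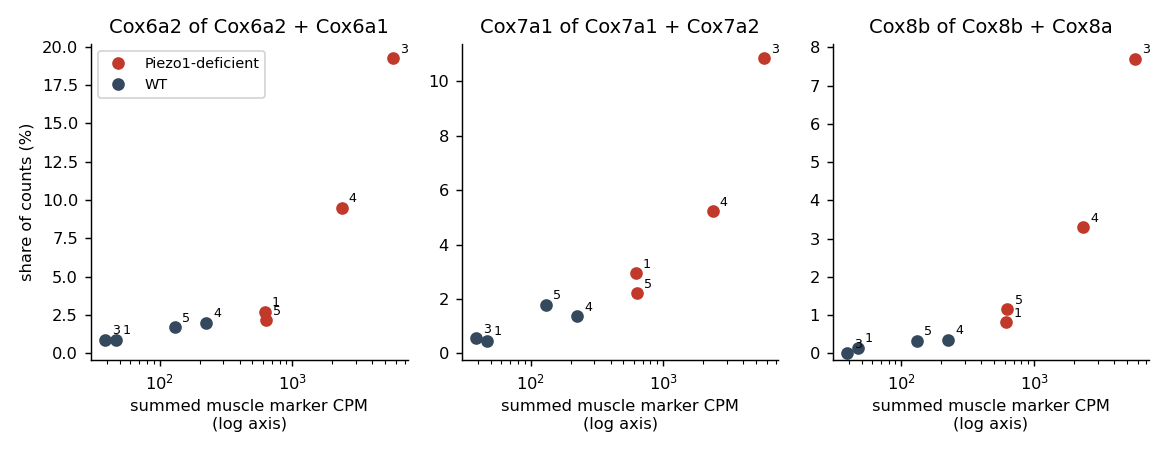
Share of the muscle form in the counts of its pair (y axes, %) against the summed CPM of 25 skeletal muscle markers (x axes, log scale) in 8 libraries, Piezo1-deficient in red and WT in dark blue, numbered by replicate. In each panel Piezo1-deficient replicates 3 and 4 lie at the upper right, with Cox6a2 shares of 19.3 and 9.51%, and the WT libraries lie at the lower left.

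As the muscle forms were highest in the same libraries, the 250 bases before the start of Cox7a1 and Cox8b are shown beside those of Cox6a1, from RefSeq on GRCm38.p6 and read 5′ to 3′ along the gene. Cox7a1 is at chr7:30183921-30184170, plus strand, Cox8b at chr7:140900447-140900696, minus strand, and Cox6a1 at chr5:115348959-115349208, minus strand. Capitals mark matches, on either strand, to CAGCTG, an E-box bound by myogenic factors, to GCGCNNGCGC, the site of NRF1, and to CCGGAAG, a core of ETS sites.
Cox7a1: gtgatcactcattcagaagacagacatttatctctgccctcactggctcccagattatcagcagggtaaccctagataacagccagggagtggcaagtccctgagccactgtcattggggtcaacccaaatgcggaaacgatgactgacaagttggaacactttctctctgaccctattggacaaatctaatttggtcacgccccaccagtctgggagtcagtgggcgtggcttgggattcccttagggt
Cox8b: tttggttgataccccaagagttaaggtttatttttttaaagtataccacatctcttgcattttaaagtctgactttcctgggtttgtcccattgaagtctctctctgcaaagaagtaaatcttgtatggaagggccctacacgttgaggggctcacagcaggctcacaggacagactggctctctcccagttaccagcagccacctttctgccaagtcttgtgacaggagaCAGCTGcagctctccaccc
Cox6a1: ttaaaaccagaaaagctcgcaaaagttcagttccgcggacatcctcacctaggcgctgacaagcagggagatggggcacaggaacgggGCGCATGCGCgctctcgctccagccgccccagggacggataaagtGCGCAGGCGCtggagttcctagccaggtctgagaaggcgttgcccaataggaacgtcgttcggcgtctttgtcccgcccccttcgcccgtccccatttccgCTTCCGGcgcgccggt

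Cox6a1 held 26 CpG pairs in this window, Cox7a1 4 and Cox8b 1. Cox6a1 matched GCGCNNGCGC at 2 places and CCGGAAG once, on the other strand, and Cox8b matched CAGCTG once. Cox7a1 matched none of them. The windows of the other partner forms, Cox7a2 and Cox8a, are not printed. They held 14 and 11 CpG pairs and, like Cox7a1, matched none of GCGCNNGCGC, CCGGAAG and CAGCTG. The Cox7a2 window, chr9:79759854-79760103 on the minus strand, lies inside the gene span given above and not before its outermost start. Cox6a2 had no usable window in the annotation. Of 27025 mouse promoters, 5.09% held GCGCNNGCGC, 7.05% CCGGAAG and 12.8% CAGCTG. Of the 67 nuclear encoded members with a promoter in the same annotation, 19.4% held GCGCNNGCGC, 16.4% CCGGAAG and 8.96% CAGCTG. The median promoter of these members held 14 CpG pairs, against 6 for all promoters. AAGGTCA, the site of estrogen-related receptors, was in 7.46% of the members' windows and 4.05% of all, the MEF2 site in 0 of 67 and 1.73% of all, and the looser E-box CANNTG, which includes CAGCTG, in 62.7 and 66.0%. These matches describe letters, and binding was not measured.

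Outside the muscle forms, the nuclear encoded genes varied little and none was called, against 3.02% of all tested genes called in either direction. At an unadjusted p below 0.05, 6 of these 80 genes were higher and 0 lower, against 10.5% of all tested genes higher and 7.89% lower, and DESeq2 called Ndufa4l2 higher. Their median log2 fold change was 0.095, from -0.31 for Cox4i2, an alternative form of subunit IV, to 0.56 for Ndufa4l2. Without Piezo1-deficient replicates 3 and 4, the median over all nuclear encoded genes was 0.011, with 42 of 82 values above 0, against 65 of 82 with all libraries. Without replicate 4 alone it was 0.033.

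Complex I, the largest of the complexes, had 36 nuclear encoded members by symbol, which summed to 1863 ± 131 CPM in Piezo1-deficient and 1731 ± 71.0 CPM in WT bone. Their median log2 fold change was 0.13, with 33 of 36 above 0. Ndufa13, also known as Grim19, was at 97.8 ± 11.4 CPM in Piezo1-deficient and 85.9 ± 6.63 CPM in WT bone, with an adjusted p of 0.31. In 5 complex I genes the genotypes did not overlap. Ndufs3 was at 46.3 to 51.0 CPM in Piezo1-deficient and 44.1 to 46.2 CPM in WT libraries, and Ndufa8 at 45.5 to 50.2 and 38.8 to 45.2 CPM. Ndufa1 was at 47.0 to 60.7 CPM in Piezo1-deficient and 37.7 to 46.7 CPM in WT libraries, and Ndufa5 at 24.5 to 30.1 and 19.6 to 24.4 CPM. These 4 had log2 fold changes of 0.11 to 0.30, whereas Ndufa10 was lower, at 57.4 to 62.5 CPM in Piezo1-deficient and 63.2 to 66.1 CPM in WT libraries, a log2 fold change of -0.10. Their adjusted p-values were 0.13 to 0.36, and among all tested genes 11.9% did not overlap in either direction and 5.27% did not overlap and were lower.

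Not every gene with such a symbol is a subunit. Ndufa4 is now assigned to complex IV, and Ndufa4l2 is its relative, known to be induced by hypoxia. Ndufa4l2, singled out after its value was seen, had 14.8, 11.9, 15.4 and 18.1 CPM in Piezo1-deficient replicates 1, 3, 4 and 5, against 12.1, 10.9, 8.29 and 9.61 CPM in WT. The genotypes overlapped through Piezo1-deficient replicate 3, and the log2 fold change of 0.56 ± 0.15 (SE) had an adjusted p of 0.080. Without Piezo1-deficient replicates 3 and 4 it was 0.69. Its gene overlaps Shmt2 in the annotation. Cox7a2l acts in joining complexes into supercomplexes, and Atp5l-ps1 and Atp5l2-ps are pseudogenes that may share reads with Atp5l. RefSeq gives Atp5s as Dmac2l and Atp5sl as Dmac2. Atp5s, Atp5sl and the pseudogenes are counted in complex V here, by symbol alone.

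Complex II, the succinate dehydrogenase of the TCA cycle, summed to 439 ± 33.1 CPM in Piezo1-deficient and 455 ± 20.9 CPM in WT bone. Of its 4 genes, 1 had a log2 fold change above 0. Sdha, the flavoprotein, was at 184, 211, 200 and 189 CPM in Piezo1-deficient libraries, against 195, 215, 219 and 208 CPM in WT libraries, a log2 fold change of -0.095 with an adjusted p of 0.51. Sdhd, a membrane anchor, was at 99.8 ± 12.2 CPM in Piezo1-deficient and 103 ± 3.28 CPM in WT bone. Complex III had 8 nuclear encoded members, with a median log2 fold change of 0.076. Uqcrh, the hinge protein, was at 140.5 ± 20.7 CPM in Piezo1-deficient and 137 ± 13.6 CPM in WT bone, and Uqcrc2, a core protein, at 117 ± 8.40 and 123 ± 3.87 CPM. Neither was called, while CYTB of the same complex was.

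Complex IV had 16 nuclear encoded members, 15 of them tested, with a median log2 fold change of 0.082. Cox4i1, the usual form of subunit IV, was at 239, 218, 237 and 225 CPM in Piezo1-deficient libraries, against 223, 226, 209 and 210 CPM in WT libraries. The genotypes overlapped, and the adjusted p was 0.53. Cox7a2l was at 133 ± 15.1 CPM in Piezo1-deficient and 138 ± 7.91 CPM in WT bone. Complex V had 19 members by symbol. They had the highest nuclear sum, 2396 ± 121 CPM in Piezo1-deficient and 2366 ± 74.0 CPM in WT bone. Atp5b, the catalytic beta subunit, was at 641, 693, 686 and 661 CPM in Piezo1-deficient libraries, against 700.3, 677, 701 and 654 CPM in WT libraries. Atp5a1, the alpha subunit, was at 543 ± 14.4 CPM in Piezo1-deficient and 560.3 ± 22.7 CPM in WT bone. Their log2 fold changes were -0.027 and -0.046, with adjusted p-values of 0.86 and 0.75, and the median of the complex was 0.051.

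Genes that supply or build the respiratory chain were compared in 6 lists, and no member of any list was called by edgeR. At an unadjusted p below 0.05, 0 to 3 members of a list were higher and 0 or 1 lower, beside the 10.5 and 7.89% of all tested genes. The highest count, 3 of 10, was in the list with the ADP/ATP carriers. DESeq2 called 2 members of the lists higher, Ckmt2 and Slc25a4, and 0 lower, against 3.87% of all genes higher and 2.34% lower. Assembly factors had a median log2 fold change of 0.0055 over 45 tested genes, and Coa5, of complex IV assembly, the one of highest mean CPM, was at 61.0 ± 4.50 CPM in Piezo1-deficient and 62.7 ± 1.76 CPM in WT bone. Genes that replicate, transcribe or translate mitochondrial DNA had a median of -0.048 over 23, with 8 above 0. Polg, the mitochondrial DNA polymerase, was at 82.6 ± 3.72 CPM in Piezo1-deficient and 84.8 ± 5.25 CPM in WT bone, and Tfam, which packs mitochondrial DNA and starts its transcription, was at 24.1 to 31.6 and 27.1 to 30.4 CPM. Pyruvate dehydrogenase and TCA cycle genes had a median of 0.013 over 17. Other respiratory chain genes had one of 0.013 over 20, with Atpif1, an inhibitor of ATP synthase, at 71.7 to 119.5 CPM in Piezo1-deficient and 80.3 to 102 CPM in WT libraries.

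Regulators of mitochondrial biogenesis had a median log2 fold change of -0.028 over 13 genes. Pprc1, a coactivator, was at 62.8 to 81.2 CPM in Piezo1-deficient and 63.0 to 99.2 CPM in WT libraries. Its better-known relatives, singled out with Tfam after their values were seen, lay on opposite sides. Ppargc1a, which encodes PGC-1alpha, had 0.93, 1.55, 1.39 and 0.78 CPM in Piezo1-deficient replicates 1, 3, 4 and 5, against 0.47, 0.44, 0.71 and 0.55 CPM in WT, which is 9 to 21 and 6 to 11 counts. Ppargc1b, which encodes PGC-1beta, had 11.8, 12.5, 11.4 and 9.82 CPM in Piezo1-deficient libraries, against 14.8, 14.6, 13.3 and 14.9 CPM in WT libraries. The genotypes did not overlap in either gene, and the log2 fold changes of 1.09 and -0.34 had adjusted p-values of 0.090 and 0.10.

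A list of ADP/ATP and phosphate carriers, aspartate/glutamate and oxoglutarate carriers, outer membrane channels (Vdac) and mitochondrial creatine kinase had a median log2 fold change of 0.042 over 10 tested genes. Slc25a5, the carrier of ADP and ATP found in most tissues, was at 312 ± 12.3 CPM in Piezo1-deficient and 330.2 ± 6.37 CPM in WT bone. Slc25a4, the form of heart and skeletal muscle, singled out after its value was seen, had 233, 301, 254 and 195 CPM in Piezo1-deficient libraries, against 196, 188, 187 and 184 CPM in WT libraries, a log2 fold change of 0.38 with an adjusted p of 0.10. Ckmt2, the mitochondrial creatine kinase of muscle, chosen likewise, had 1.52, 35.4, 14.9 and 3.48 CPM in Piezo1-deficient libraries, against 0.31, 0.073, 1.88 and 0.62 CPM in WT libraries. Its highest values were in Piezo1-deficient replicates 3 and 4, as for Cox6a2, and its log2 fold change of 4.19 ± 1.00 (SE) had an adjusted p of 0.052. With 4, 1, 29 and 8 counts in WT replicates 1, 3, 4 and 5, Ckmt2 passed the filter on low counts through its Piezo1-deficient libraries.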

How the data were processed

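The authors' deposited table holds whole-number counts per gene for 8 libraries prepared with a TruSeq kit, and next to them the authors' log2 fold changes, p-values and FDR, which were not used. Mapping is described as TopHat to mm9 in the study's methods and as HISAT2 to GRCm38 in the submitters' processing notes; the read counter, its use of strand and its annotation are not given in the sources used here. Counts were tested in R 4.3.3 with edgeR 4.0.16: 15318 genes passed filterByExpr, normalization was by TMM (factors of 0.888 to 1.07), and 4 Piezo1-deficient libraries were set against 4 WT libraries by the quasi-likelihood F test, with Benjamini-Hochberg adjustment over all tested genes. The filter asks for enough counts in at least 4 of the 8 libraries, so a gene low in 1 genotype can pass through the other. A gene is called at an adjusted p below 0.05. The SE of a log2 fold change is its absolute value over the square root of F, and the biological coefficient of variation was 13.1%. The study's own test, Cuffdiff, needs alignments. For single genes, mean CPM was permuted exactly over all 70 arrangements of the libraries (two-sided, smallest p 0.0286). On simulated counts of 15161 genes, edgeR recovered 86% of genes changed 2-fold and 98% of those changed 4-fold, with 7 false calls among 191. Genes were drawn independently there. The simulation therefore does not give the recovery of smaller differences, or of genes that move together as the mitochondrial encoded ones do.

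Members, companion lists and marker lists were chosen with earlier results of these data known. Named are the 3 muscle forms and their partners, the 13 mitochondrial encoded genes, the called members of each complex or else the 2 of highest mean CPM, the called members of each companion list or else the 1 of highest mean CPM, non-overlapping members where 5 or fewer, and Piezo1; some genes that this rule takes are not reported here. The markers were those of skeletal muscle, brown fat, heart, osteoblasts and osteocytes, osteoclasts, chondrocytes, erythroid cells and neutrophils; erythroid marker sums averaged 4468 CPM in Piezo1-deficient and 4094 CPM in WT bone and neutrophil sums 4869 and 5928 CPM, with none called. Positions are from RefSeq on GRCm38.p6 (93 members by symbol, 3 by synonym). Copies of mitochondrial DNA were found with BLAST 2.17.0 on NCBIM37 at 95% identity or more over at least 300 bases, with gene positions of GENCODE M1 on that build. Alternatives were the size factors and the Wald test of DESeq2 1.42.0, no filter or a mean of at least 5 CPM, a replicate block, library sizes without the mitochondrial or without 3 matrix genes, leaving out each library, and, chosen after seeing the data, leaving out the Piezo1-deficient replicates 3 and 4.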

Additional observations from a re-analysis of the deposited data

Results flagged for a closer look

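Ndufa1, a small subunit of complex I, had 60.7 CPM in Piezo1-deficient replicate 4, against 47.0 to 48.9 CPM in the other 3 Piezo1-deficient libraries. The gap took 0.865 of the range of the group, above Dixon's limit for 4 samples. Of 94 groups of 4 libraries examined this way, this was the 1 that passed, and chance alone flags about 1 in 20.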

How the results depend on the processing

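The median log2 fold change of the 13 mitochondrial encoded genes was 0.40 to 0.59 in all alternatives other than leaving out both Piezo1-deficient replicates 3 and 4, with 13 of 13 above 0, except 12 of 13 without Piezo1-deficient replicate 3 and 11 of 11 tested at a mean of at least 5 CPM. The number of them called was 6 by DESeq2, 1 (ND4) at a mean of at least 5 CPM and 0 to 5 when 1 library was left out. Nuclear encoded genes called were 2 with no filter on low counts, 3 by DESeq2 and 0 to 4 when 1 library was left out. Without Piezo1-deficient replicate 1 these were Cox6a2, Cox7a1, Cox8b and Ndufs6. None was called lower in any alternative. Over all genes, DESeq2 called 592 higher and 358 lower, and leaving out 1 library gave 71 to 415 higher and 49 to 271 lower. Leaving out both Piezo1-deficient replicates 3 and 4 gave 63 higher and 46 lower, 0 mitochondrial encoded genes called and a log2 ratio of 2.21 for Cox8b. The cause of these changes in call was not tested. A fit with libraries left out also has fewer samples.

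The log2 fold change of Cox6a2 was 2.94 by DESeq2, where it was called, and 2.05 to 3.25 with 1 library left out. That of Cox7a1 was 2.49 by DESeq2 and 2.48 with no filter, where it was called, and 1.87 to 2.79 with 1 library left out. The log2 ratio of Cox8b was 3.24 to 4.58 with 1 library left out. Counted per kilobase of transcript, Cox7a1 made up 10.2% of its pair in Piezo1-deficient and 2.13% in WT bone. With Col1a1, Col1a2 and Sparc left out of the total, mitochondrial encoded genes took 2.77% in Piezo1-deficient and 2.08% in WT bone, and nuclear encoded genes 0.849 and 0.839%. With 1 library left out, mitochondrial shares were 1.87 to 2.15% in Piezo1-deficient and 1.54 to 1.71% in WT bone, and nuclear shares 0.593 to 0.647 and 0.641 to 0.663%. Isoform shares were 4.79 to 10.5% in Piezo1-deficient and 1.17 to 1.54% in WT bone for Cox6a2, 3.47 to 6.34 and 0.795 to 1.24% for Cox7a1, and 1.76 to 4.05 and 0.163 to 0.283% for Cox8b.

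The replicate numbers are shared by both genotypes, but the deviations of same-numbered libraries correlated at 0.33, -0.22, 0.17 and -0.0095, so the numbers were not taken as pairs. With a replicate block, 506 genes were higher and 320 lower, 2 nuclear encoded genes were called (Cox6a2 at 2.62 and Cox7a1 at 2.36), and CYTB, ND4 and ND6 were called among the mitochondrial encoded genes.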
